A study of Mus musculus with 16 samples.

Results

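Keratins and the proteins of the cornified envelope were followed in embryonic mouse tooth germs as 84 genes of the 19938 that had a probe set carrying a single gene symbol. The genes were chosen by name: all numbered keratins (48 genes), all small proline-rich (Sprr) genes (13), all late cornified envelope (Lce) genes (19), and loricrin (Lor), involucrin (Ivl), Krtdap and Sbsn. Each was measured by 1 probe set. Dsg1a, Lce3d, Sprr2a1, Sprr2a2 and Sprr2a3, which the same names would admit, lie on probe sets of several symbols and were not analysed here. The tooth germs came from wild-type embryos of C57Bl6 background at embryonic day 14.5, with no transgene or treatment in any group. Lower incisors gave 4 samples, mandibular first molars 8 and maxillary first molars 4. Every sample was RNA from a pool of 4 microdissected tooth germs, hybridized to its own Affymetrix mouse gene array. Which animals or litters went into which pool is not given in the sources used here, and the p-values therefore reflect only how these pools varied, which may be technical. A whole tooth germ holds epithelium and mesenchyme, so fewer cells of a type and less RNA per cell cannot be told apart.

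Keratins are the intermediate filament proteins of epithelial cells and assemble as pairs of a type I and a type II chain. Basal cells of stratified epithelium make Krt5 with Krt14, differentiating cells of the epidermis switch to Krt1 with Krt10, those of oral and oesophageal mucosa to Krt4 with Krt13, and simple epithelia use Krt8, Krt18, Krt19 and Krt7. At the end of differentiation, transglutaminases cross-link involucrin, loricrin, small proline-rich and late cornified envelope proteins under the cell membrane into the cornified envelope. In the tooth germ the enamel organ epithelium lies continuous with the oral epithelium.

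The values were RMA signals on the log2 scale, so that a difference of 1 is a 2-fold difference. A signal of 5 or less was treated as low. Of the 84 genes, 53 lay above 5 in all 16 samples, 12 in some and 19 in none. The 65 genes above 5 in at least 1 compared sample were tested in each comparison: 46 of the 48 keratins, 6 of the 13 Sprr genes, 9 of the 19 Lce genes and the other 4. The remaining 2 keratins, 7 Sprr and 10 Lce genes reached at most 4.96. A gene was called when the Benjamini-Hochberg adjusted p of limma's test over all probe sets was under 0.1 and the fold change exceeded 1.2. Differences are given as mandibular molar minus the other tooth, so that a negative value is a higher signal in the incisor or the maxillary molar.

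The samples also fell into a pattern that the labels do not give. Across all probe sets, mandibular molars 5 to 8 correlated more closely with the maxillary molars (median r = 0.9942 over 16 pairs) than with mandibular molars 1 to 4 (0.9898), whereas the lower incisors correlated more closely with mandibular molars 1 to 4 (0.9902) than with 5 to 8 (0.9861). Values within these sets are therefore given beside the results: incisors against mandibular molars 1 to 4, and maxillary molars against mandibular molars 5 to 8. The study left out an incisor sample that the labels do not name, so all 4 were used and each was left out in turn. The mean signal of 10 general epithelial genes lay between 8.45 and 8.79 in the incisors, 8.53 and 9.08 in the mandibular molars and 8.64 and 8.93 in the maxillary molars. All 10 genes were above 5 in every sample, as were the 6 measured tooth epithelium and the 6 measured tooth mesenchyme genes.

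The lower incisor was compared with the mandibular first molar to find keratins and envelope genes that differ between these tooth types of the lower jaw. Of the 65 genes tested, 6 were higher in the incisor (9.2%) and 2 were higher in the mandibular molar (3.1%). Among all 29258 probe sets tested, 2.18% were called higher in the incisor and 2.75% higher in the molar. The genes higher in the incisor were the suprabasal keratin pair Krt1 and Krt10, the small proline-rich genes Sprr3, Sprr1a and Sprr1b, and the hair keratin Krt31. Those higher in the molar were the simple epithelial keratin Krt19 and the appendage keratin Krt17. At an unadjusted p under 0.05 (limma), 11 genes were higher in the incisor and 5 in the molar. Among all 29258 probe sets, 5375 had such a p in either direction. The median difference was -0.07 over the 65 genes and -0.02 over all probe sets. The other 57 tested genes differed by between -0.61 and 0.68, and 50 of them by no more than 0.3 either way.

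**Figure D1:**
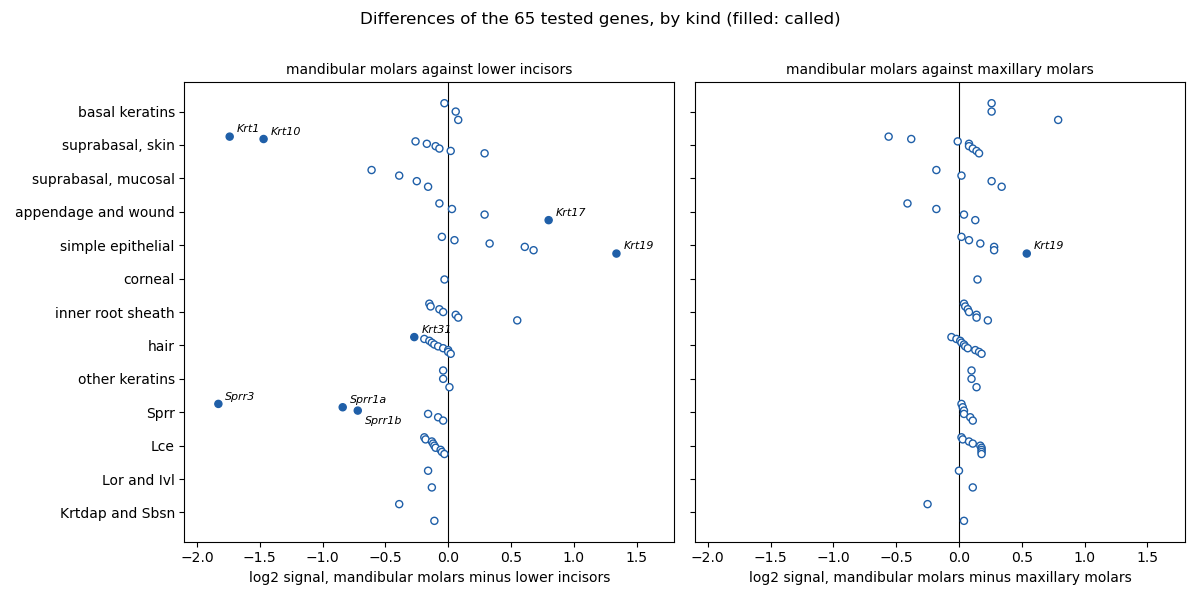
Each point is 1 of the 65 tested genes, placed by its log2 difference between mandibular molars (n = 8) and lower incisors (n = 4, left) or maxillary molars (n = 4, right) and grouped by kind; filled points were called. Krt1, Krt10 and 3 Sprr genes lie far to the incisor side on the left, and on the right Krt19 is the single filled point.

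Krt1, the type II keratin of differentiating epidermis, had signals of 9.48, 9.57, 10.16 and 9.80 in the 4 incisors. The 8 mandibular molars ranged from 7.47 through a median of 7.95 to 8.76, and the maxillary molars gave 8.29, 8.58, 8.28 and 9.12. All incisors lay above all molars. The means were 9.75 ± 0.30 (SD, n = 4) in incisors and 8.01 ± 0.45 (n = 8) in mandibular molars, a difference of -1.74 with a standard error of 0.23, or 3.34-fold (limma, adjusted p = 0.000816). Within the sample set the difference was -1.79 (adjusted p = 0.0095). Its type I partner Krt10 had signals of 8.95, 8.44, 9.66 and 9.19 in the incisors. In the mandibular molars it ranged from 7.32 through 7.55 to 7.94, and in the maxillary molars it was 8.06, 7.91, 7.74 and 8.20. Again no molar reached the lowest incisor. For Krt10 the difference from the mandibular molar was -1.47 with a standard error of 0.18, or 2.77-fold (limma, adjusted p = 0.000488), and -1.58 within the sample set. The genes of this pair lie on different chromosomes, Krt1 on chromosome 15 and Krt10 on chromosome 11. The incisor with the highest Krt1 signal, incisor 3, also had the highest Krt10 signal.

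The other epidermal suprabasal keratins measured did not follow this pair. Of the 8 keratins in this group, Krt1 and Krt10 were called and 6 were not, with differences of at most 0.29 either way. Krt2, a late epidermal keratin, had means of 5.06 in incisors and 5.08 in mandibular molars, close to the limit for low signal.

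Sprr3, a small proline-rich envelope protein of internal stratified epithelia, had the largest difference of the 65 genes. Its signals were 7.20, 7.92, 7.93 and 8.70 in the incisors. In the mandibular molars they ranged from 5.63 through 6.07 to 7.02, and in the maxillary molars they were 5.72, 5.88, 6.25 and 6.53. The lowest incisor lay above the highest molar, mandibular molar 8. The difference was -1.83 with a standard error of 0.27, or 3.54-fold (limma, adjusted p = 0.0019), and -1.88 within the sample set.

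Sprr1a, an envelope cross-bridging protein, had signals of 7.56, 8.27, 8.27 and 8.33 in the incisors. It ranged from 6.88 through 7.28 to 7.72 in the mandibular molars and was 6.87, 7.09, 7.11 and 7.56 in the maxillary molars. Incisor 1 fell within the range of the mandibular molars, and the other incisors lay above it. The difference was -0.84 with a standard error of 0.16, or 1.79-fold (limma, adjusted p = 0.0114), and -0.95 within the sample set (adjusted p = 0.0524). Its close relative Sprr1b had signals of 6.35, 6.16, 6.59 and 6.35 in the incisors. It ranged from 5.32 through 5.70 to 5.88 in the mandibular molars and from 5.47 to 5.74 in the maxillary molars, with no overlap. The difference was -0.72 with a standard error of 0.11, or 1.65-fold (limma, adjusted p = 0.00192), and -0.58 within the sample set. The other 3 Sprr genes tested differed by between -0.16 and -0.04 and were not called.

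Sprr1b, Sprr3 and Sprr1a are neighbours. In the RefSeq annotation of GRCm38.p6 they occupy positions 92436808 to 92438817, 92456502 to 92458720 and 92483954 to 92485881 of chromosome 3, and no other gene of the annotation table used lies between them. On one side, Sprr2k was not above 5 in any sample, and on the other, Sprr4 and Ivl were tested and not called. All 34 of the genes studied here on chromosome 3 belong to the epidermal differentiation complex, and these 3 were the ones called among them.

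Promoter sequence from RefSeq was matched for 68 of the 84 genes, with 69 promoters of 300 bases each, 250 before and 50 after the transcript start. The letters TGANTCA, which AP-1 factors bind and which read alike on both strands, occurred in 9 of the 11 Sprr promoters. They also occurred in 2 of the 36 keratin promoters, both of the same gene, Krt13. The counts were 0 of the 18 Lce promoters and all 4 of the others. Over all 32851 promoters the share was 7.81%, and over the 69 it was 21.7%. The TATA box letters TATAAA, searched on the transcribed strand only, occurred in 43.5% of the 69 promoters and 8.32% of all promoters, and in 10 of the 11 Sprr promoters. The AP-2 letters GCCNNNGGC, searched on both strands, occurred in 11.6% of the 69 and 16.6% of all. The Sprr2 genes are close paralogs, so the Sprr promoters are not independent sequences. The 150 bases before the transcript start are shown for the called genes that had an entry and for Lor and Ivl, which were not called. The start used for Sprr1b, Ivl and Krt10 lies inside the gene span of the annotation, so those windows overlap the gene. TGANTCA and TATAAA are in capitals, and the sequences run 5′ to 3′ on GRCm38.p6.
Sprr1b, chr3:92438780-92438929, minus strand: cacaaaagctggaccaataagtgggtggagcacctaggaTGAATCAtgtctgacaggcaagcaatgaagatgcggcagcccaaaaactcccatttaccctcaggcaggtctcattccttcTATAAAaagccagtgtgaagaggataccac
Sprr3, chr3:92458721-92458870, minus strand: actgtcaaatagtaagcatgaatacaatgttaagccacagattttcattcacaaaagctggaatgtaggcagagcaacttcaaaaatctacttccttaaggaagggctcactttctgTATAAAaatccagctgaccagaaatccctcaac
Sprr1a, chr3:92485882-92486031, minus strand: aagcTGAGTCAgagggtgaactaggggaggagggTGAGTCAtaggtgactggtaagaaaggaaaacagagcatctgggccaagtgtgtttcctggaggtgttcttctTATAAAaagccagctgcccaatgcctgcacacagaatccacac
Krt10, chr11:99389365-99389514, minus strand: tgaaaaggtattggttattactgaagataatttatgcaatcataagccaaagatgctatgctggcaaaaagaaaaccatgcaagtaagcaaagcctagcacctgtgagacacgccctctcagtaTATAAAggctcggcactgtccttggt
Krt31, chr11:100050552-100050701, minus strand: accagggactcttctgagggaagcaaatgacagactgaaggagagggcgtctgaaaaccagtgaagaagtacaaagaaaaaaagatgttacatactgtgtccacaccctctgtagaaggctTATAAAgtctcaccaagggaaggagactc
Ivl, chr3:92573736-92573885, minus strand: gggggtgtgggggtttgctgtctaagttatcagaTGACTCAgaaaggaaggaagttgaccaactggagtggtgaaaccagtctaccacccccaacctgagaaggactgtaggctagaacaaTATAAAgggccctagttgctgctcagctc
Lor, chr3:92083143-92083292, minus strand: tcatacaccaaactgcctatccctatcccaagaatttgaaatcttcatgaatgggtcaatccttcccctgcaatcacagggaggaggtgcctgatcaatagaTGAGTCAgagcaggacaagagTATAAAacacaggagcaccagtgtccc

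The TGANTCA letters were present before Sprr1a and Sprr1b, and also before Ivl and Lor, and were not in the windows of Sprr3, Krt10 and Krt31. The letters thus occurred before called and uncalled genes alike. Every window shown held TATAAA.

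Loricrin, the main protein of the epidermal envelope, had signals of 6.09, 6.15, 6.25 and 6.26 in the incisors and ranged from 5.87 through 6.03 to 6.16 in the mandibular molars. Its difference was -0.16 (95% interval -0.31 to 0.00; limma, adjusted p = 0.262). Involucrin, an early scaffold of the envelope, stayed close to the limit for low signal, from 4.95 to 5.20 in incisors and from 4.79 to 5.11 in mandibular molars, and its difference was -0.13 (95% interval -0.28 to 0.02). The 9 Lce genes tested, which encode proteins of the last stage of envelope assembly, differed by between -0.19 and -0.03 and were not called. Krtdap, a peptide secreted by differentiating keratinocytes, gave 7.08, 6.95, 7.18 and 7.31 in the incisors against 6.46 through 6.70 to 7.25 in the mandibular molars. The groups overlapped through mandibular molar 8, and the difference of -0.39 was not called (limma, adjusted p = 0.143). Krtdap was called without mandibular molar 8 alone, at -0.46 (adjusted p = 0.028), and within the sample set, at -0.54 (adjusted p = 0.0402). Sbsn, another protein of differentiating epidermis, had means of 7.07 ± 0.09 (n = 4) and 6.96 ± 0.09 (n = 8) and was not called.

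The basal keratins gave no called difference between incisor and mandibular molar. Krt5 was 12.05, 12.22, 12.35 and 12.18 in the incisors and ranged from 11.93 through 12.27 to 12.53 in the mandibular molars, a difference of 0.08 with a 95% interval of -0.14 to 0.30. Krt14, its type I partner, differed by 0.06 (95% interval -0.19 to 0.31). Krt15, a further basal type I keratin, differed by -0.03 (95% interval -0.56 to 0.50). The incisors lay within the range of the molars for all 3 genes.

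**Figure D2:**
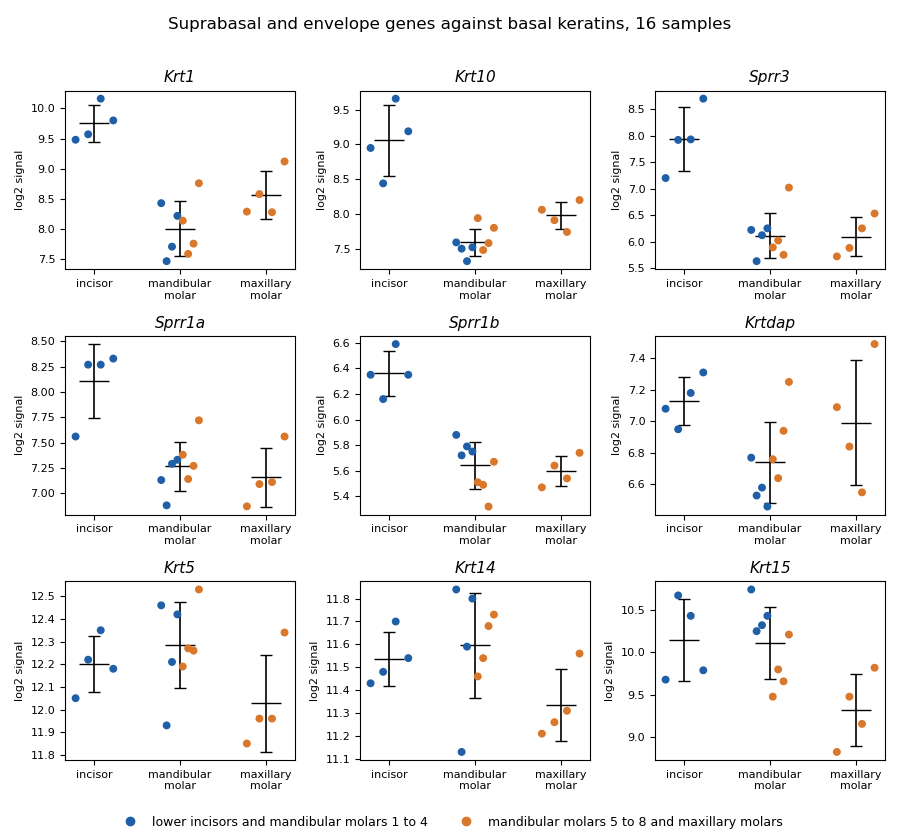
Log2 signal (vertical axes, one scale per gene) of 9 genes in each of the 16 samples by tooth type; bars show the mean and SD, and colour marks the sample sets. Krt1, Krt10, Sprr3 and Sprr1b in the incisors stand clear of all molars, while Krt5 and Krt14 incisor points lie within the mandibular range.

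Krt19, a keratin of simple epithelium and of some basal cells, was higher in the molar. Its signals were 7.23, 8.76, 7.54 and 7.24 in the incisors. It ranged from 8.69 through 9.02 to 9.50 in the mandibular molars and was 8.23, 8.55, 8.45 and 8.73 in the maxillary molars. Incisor 2 lay among the molars and the other 3 incisors lay below all of them. The difference between mandibular molars and incisors was 1.34 with a standard error of 0.25, or 2.53-fold (limma, adjusted p = 0.00886). Within the sample set it was 1.45 and was not called (adjusted p = 0.107).

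Krt8, the type II keratin of simple epithelium, gave 8.98, 10.02, 8.68 and 9.20 in the incisors against 9.65 through 9.77 to 10.10 in the mandibular molars. Its usual partner Krt18 gave 8.35, 9.46, 8.08 and 8.63 against 8.68 through 9.42 to 9.57. For both genes incisor 2 was the one incisor within the range of the mandibular molars, as it was for Krt19. Neither passed the test, with differences of 0.61 for Krt8 (limma, adjusted p = 0.116) and 0.68 for Krt18 (adjusted p = 0.133). Krt7, a keratin of ducts and simple epithelia, differed by 0.33 (adjusted p = 0.273). Without incisor 2, all 3 were called higher in the mandibular molar, Krt8 by 0.87, Krt18 by 0.95 and Krt7 by 0.51, and the Krt19 difference was 1.69. Krt18 was also called without mandibular molar 2, its lowest molar sample, by 0.77. Of the 6 simple epithelial keratins, 1 was called with all samples, and their median difference was 0.47.

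Krt17, a keratin of embryonic epithelium and its appendages, was higher in the mandibular molar by 0.80 with a standard error of 0.21, or 1.74-fold (limma, adjusted p = 0.058). Its signals were 11.22, 11.50, 11.50 and 11.71 in the incisors and ranged from 11.37 through 12.45 to 12.65 in the mandibular molars. Mandibular molar 2 fell among the incisors. The call was lost without incisor 1, 2 or 3 or without mandibular molar 5, 6 or 7 (differences 0.71 to 0.81, adjusted p between 0.103 and 0.181). The difference was 0.50 against mandibular molars 1 to 4 (adjusted p = 0.516) and 1.1 against 5 to 8. Krt75, a companion layer keratin, was not called and changed sign between the sets, at -0.19 against samples 1 to 4 and 0.78 against samples 5 to 8. Its signals in mandibular molars 5 to 8 (8.81 to 8.93) lay with the maxillary molars (8.75 to 8.87), and those in mandibular molars 1 to 4 (7.22 to 8.36) lay lower. Tooth type and sample set cannot be told apart in the comparison of incisors with mandibular molars 5 to 8.

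Krt31, a hair keratin, had signals below 6 in every sample. It gave 5.71, 5.89, 5.87 and 5.50 in the incisors and 5.32 through 5.50 to 5.57 in the mandibular molars. The groups overlapped, and its difference of -0.27 was 1.21-fold, just past the fold threshold (limma, adjusted p = 0.0858). The call was lost without incisor 1, 2 or 3 or mandibular molar 1, 3, 5, 6, 7 or 8 (differences -0.28 to -0.22, adjusted p between 0.101 and 0.275). The other 9 hair keratins tested differed by between -0.19 and 0.02 and were not called.

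**Figure D3:**
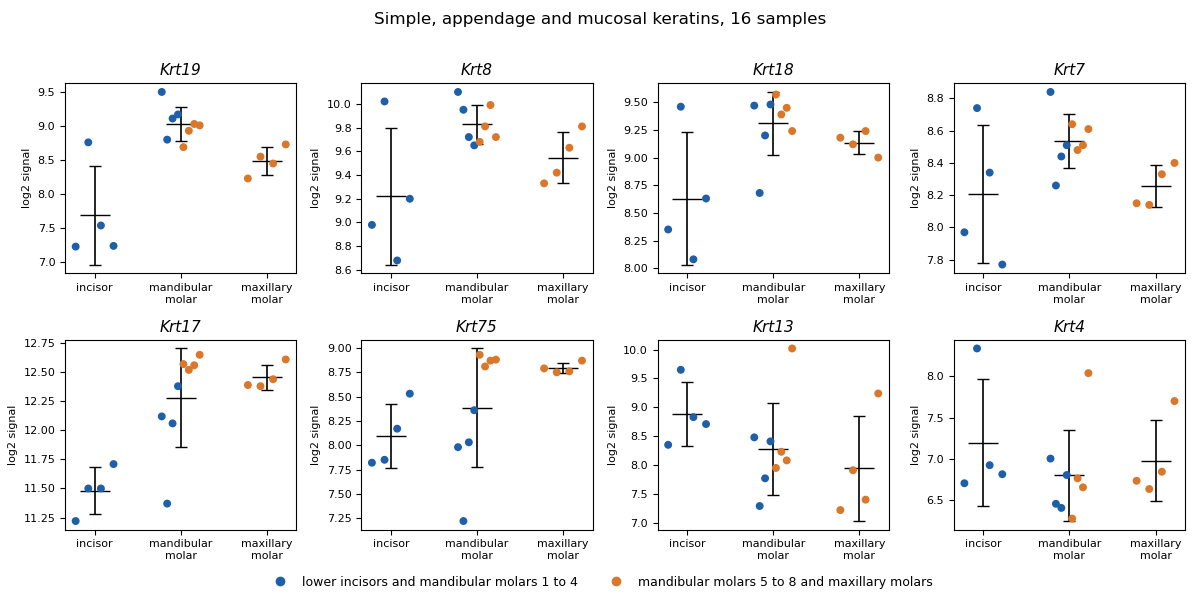
Log2 signal (vertical axes, one scale per gene) of 8 keratins in each of the 16 samples by tooth type; bars show the mean and SD, and colour marks the sample sets. Incisor 2 lies with the molars for Krt19, Krt8 and Krt18, and a single high sample in each tooth type stands out for Krt13 and Krt4.

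None of the 4 mucosal suprabasal keratins was called in either comparison. Krt13 was 8.35, 9.65, 8.83 and 8.71 in the incisors, 7.29 through 8.15 to 10.02 in the mandibular molars, and 7.22, 7.91, 7.40 and 9.24 in the maxillary molars. Krt4, its type II partner, was 6.70, 8.34, 6.92 and 6.81, then 6.27 through 6.71 to 8.04, then 6.73, 6.63, 6.84 and 7.70. For both genes the highest samples of their groups were incisor 2, mandibular molar 8 and maxillary molar 4. Neither gene was called, with differences from the incisor of -0.61 for Krt13 (95% interval -1.48 to 0.27) and -0.39 for Krt4 (-1.14 to 0.35). All 4 incisors lay above the mandibular median for Krt13, and its difference was -0.86 without mandibular molar 8 and -0.90 within the sample set, not called in either fit (limma, adjusted p = 0.436 within the set). Krt76, a palatal keratin, had means near the limit for low signal, 5.07 in incisors and 4.92 in mandibular molars. Mandibular molar 8 and maxillary molar 4 were then followed over a set of differentiation genes. The set includes Krt13 and Krt4, for which these samples had already been singled out. The same counts over all probe sets were not made. Over 19 tested genes (suprabasal keratins with Krt13 and Krt4, Sprr genes and Krtdap), mandibular molar 8 was the highest of 8 mandibular molars for 9. Maxillary molar 4 was the highest of 4 for 10. Over all 65 tested genes, mandibular molars 3 and 8 were each highest for 15, and maxillary molars 3 and 4 each for 26. Over the 9 tested Lce genes, mandibular molar 8 was highest for 1 and lowest for 1. Maxillary molar 4 was highest for 3 of the Lce genes and lowest for 3. Mandibular molar 8 and maxillary molar 4 also had the highest mean of the 10 general epithelial genes in their group, 9.08 and 8.93. Mandibular molar 1 was close, at 9.07, and incisor 2 was the highest incisor, at 8.79. The mean of the 6 measured tooth epithelium genes was 8.58 in mandibular molar 8, against 8.78 in mandibular molar 5. It was 8.64 in maxillary molar 4, the highest of its group, and 7.92 in incisor 2, the lowest of its group. Mandibular molar 2 was the lowest of 8 for 9 of the 19 genes and for 22 of all 65. Of the 9 Lce genes it was highest for 5 and lowest for 0. It had the lowest general epithelial mean of its group, 8.53, and the lowest tooth epithelium mean, 7.74. Its mean of 6 skeletal muscle genes, 9.43, was the highest. The part of these tissue shares in the single high and low samples was not tested.

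**Figure D4:**
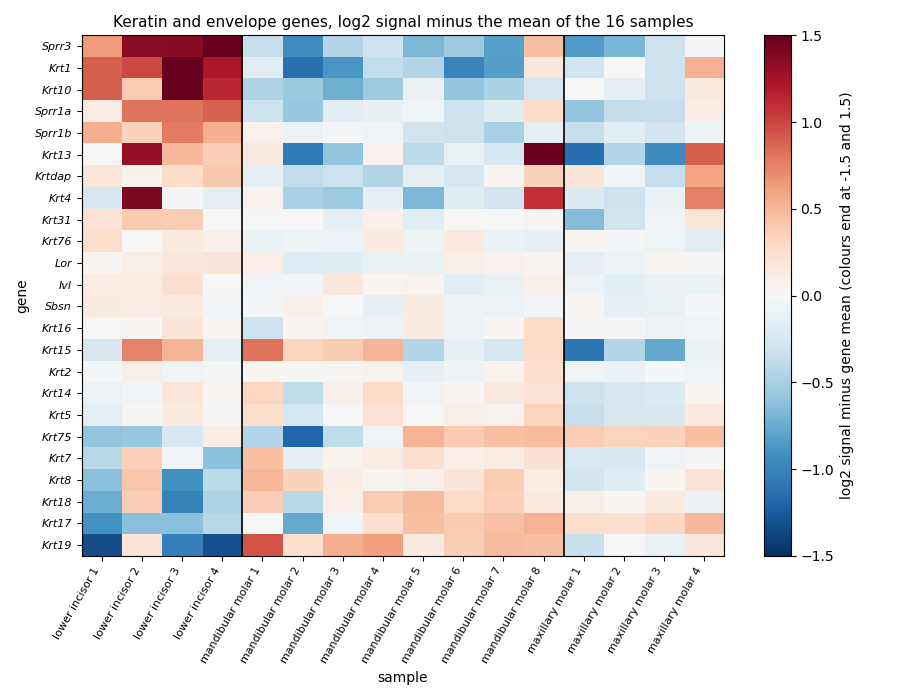
Log2 signal minus the gene's mean over the 16 samples (colour, ending at -1.5 and 1.5) for 24 keratin and envelope genes (rows, ordered by the difference between mandibular molars and incisors) in each sample (columns, tooth types separated by lines). Krt13 and Krt4 are high in incisor 2, mandibular molar 8 and maxillary molar 4, and Krt1, Krt10, Sprr3, Sprr1a and Sprr1b are high across the incisors.

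Several readings bear on the difference between incisor and molar. Within the sample set 6 of the 65 genes were again called higher in the incisor and 0 in the molar (10 and 3 at an unadjusted p under 0.05), against 0.832% and 0.948% of all 29100 probe sets. These 6 were Sprr3, Krt1, Krt10, Sprr1a, Sprr1b and Krtdap, so Krt31, Krt19 and Krt17 were not called there. Of the 29100 probe sets, 2539 had an unadjusted p under 0.05 (limma) within the set, in either direction. Krt1, Krt10, Sprr3, Sprr1a, Sprr1b and Krt19 kept their calls when each of the 12 samples was left out in turn. The mean of 6 cartilage genes was 8.29, 6.93, 7.25 and 8.41 in the 4 incisors and between 6.52 and 6.73 in the mandibular molars, so every incisor lay above every mandibular molar. With incisors 2 and 3 alone, a choice made after these values were seen, the Krt1 difference was -1.85, that of Krt10 -1.46 and that of Sprr3 -1.81, each called. With the same samples Krt19 differed by 0.88 and was not called (limma, adjusted p = 0.113). The skeletal muscle mean was 8.95 to 9.09 in incisors and 7.90 to 9.43 in mandibular molars, and the mean of 6 mast cell genes was 6.48 to 7.02 and 6.09 to 6.71. The part of cartilage, muscle and mast cells in these results was not tested. The mean of the general epithelial genes was 8.65 ± 0.15 (n = 4) in incisors and 8.92 ± 0.18 (n = 8) in mandibular molars.

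The mandibular and maxillary first molars were compared to find genes that differ between the jaws. Of the 65 genes tested, 0 were higher in the maxillary molar and 1, Krt19, was higher in the mandibular molar (1.5%). Among all 29068 probe sets tested, 1.18% were called higher in the maxillary and 1.01% higher in the mandibular molar. At an unadjusted p under 0.05, limma gave 2 genes higher in the maxillary and 14 in the mandibular molar. Among all 29068 probe sets, 4971 had such a p in either direction. The median difference was 0.08 over the 65 genes and 0.02 over all probe sets. Of the 64 genes not called, 59 differed by no more than 0.3 either way.

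Krt19 was higher in the mandibular molar by 0.54 with a standard error of 0.13, or 1.45-fold (limma, adjusted p = 0.0765). Maxillary molar 4, at 8.73, lay just above the lowest mandibular molar, at 8.69, and the other maxillary molars lay below all mandibular ones. The call was lost without mandibular molar 3 or 4 or without maxillary molar 1, 2 or 3 (differences 0.45 to 0.56, adjusted p between 0.126 and 0.278), and the difference within the sample set was 0.43 (adjusted p = 0.175). Within the sample set 0 of the 65 genes were called in either direction (0 and 11 at an unadjusted p under 0.05), against 0.743% of the 28686 probe sets higher in the maxillary and 0.54% higher in the mandibular molar. Of those 28686 probe sets, 3684 had an unadjusted p under 0.05 (limma) in either direction.

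Krt15 had the largest difference in this comparison, 0.79 (95% interval 0.28 to 1.30), and was not called (limma, adjusted p = 0.14). Its signals were 8.83, 9.48, 9.16 and 9.82 in the maxillary molars and 9.48 through 10.23 to 10.74 in the mandibular molars. Mandibular molars 1 to 4 ranged from 10.25 to 10.74 and 5 to 8 from 9.48 to 10.21, and the difference within the sample set was 0.47. Without mandibular molar 5, the lowest of the 8, Krt15 was called at 0.88 (adjusted p = 0.0906). Krt5 (0.26, 95% interval 0.01 to 0.50) and Krt14 (0.26, 0.00 to 0.52) were not called either. Krt10 and Krt1 were on the maxillary side by -0.38 (adjusted p = 0.135) and -0.56 (adjusted p = 0.271), and Krt10 was called at -0.43 without mandibular molar 5. The Sprr genes that differed in the incisor comparison had differences near 0 here, 0.02 for Sprr3 (95% interval -0.47 to 0.51), 0.11 for Sprr1a (-0.21 to 0.42) and 0.04 for Sprr1b (-0.17 to 0.26). Both comparisons share the mandibular molar samples. The skeletal muscle mean was 6.96 to 7.48 in the maxillary molars, below the mandibular range, and its part in these differences was not tested.

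Other genes of keratinizing epithelium, from a list of 63 of which 58 were measured and 54 tested, were read beside the keratins. Against the incisor, 9 were higher in the incisor (16.7%, against 2.18% of all probe sets) and 3 in the mandibular molar (5.6%, against 2.75%). Within the sample set 5 and 1 were called, against 0.832% and 0.948% of all probe sets. Cnfn, which encodes the envelope protein cornifelin, gave 7.56, 7.89, 7.78 and 7.97 in the incisors against 6.86 through 7.01 to 7.39 in the mandibular molars, with no overlap (difference -0.76, limma, adjusted p = 0.000758). Calml3, a calmodulin-like epithelial protein, differed by -0.72, and Lypd3, a membrane protein of suprabasal cells, by -0.67. The keratin Krt6b, whose symbol ends in a letter and which therefore was not among the 84 genes, differed by -0.63 without overlap, while its neighbour Krt6a differed by 0.06 (95% interval -0.54 to 0.67). Spink5, a protease inhibitor of the skin barrier, differed by -0.63, the lipid transporter Abca12 by -0.55, and the envelope cross-linking enzyme Tgm1 by -0.51. Tgm3, a further cross-linking enzyme, differed by -0.45 without overlap, and Cdsn, the adhesion protein corneodesmosin, by -0.29. Cnfn, Lypd3, Krt6b and Tgm3 kept their calls with any 1 of the 12 samples left out. Left-out samples ended the call of Abca12 (without incisor 3, -0.51), of Cdsn (without incisor 2 or 3 or mandibular molar 5, 7 or 8, -0.29 to -0.24), of Tgm1 (without incisor 2 or 3 or mandibular molar 5, -0.50 to -0.38), of Calml3 (without incisor 2 or 3 or mandibular molar 5, 6 or 7, -0.70 to -0.53) and of Spink5 (in 10 of 12 fits, all but those without mandibular molar 2 or 8, -0.68 to -0.57).

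On the molar side stood Serpinb5, an epithelial serpin, at 0.87, the growth factor carrier Fgfbp1 at 0.75, and the envelope protein gene Scel at 0.44. Fgfbp1 was the one of these called within the sample set, and it kept its call with any single sample left out. Serpinb5 lost its call without incisor 1 (0.79) or 3 (0.82). Scel lost its call without incisor 1, 3 or 4 or mandibular molar 1 or 7 (0.37 to 0.47). Trp63, the transcription factor of stratified epithelium, differed by 0.14 (95% interval -0.13 to 0.41), and Evpl and Ppl, the plakins of the early envelope, by -0.15 and 0.06, none called. The transcription factors of barrier formation Klf4 (-0.26) and Grhl3 (0.33) were not called either, though Grhl3 was without mandibular molar 2, at 0.37.

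**Figure D5:**
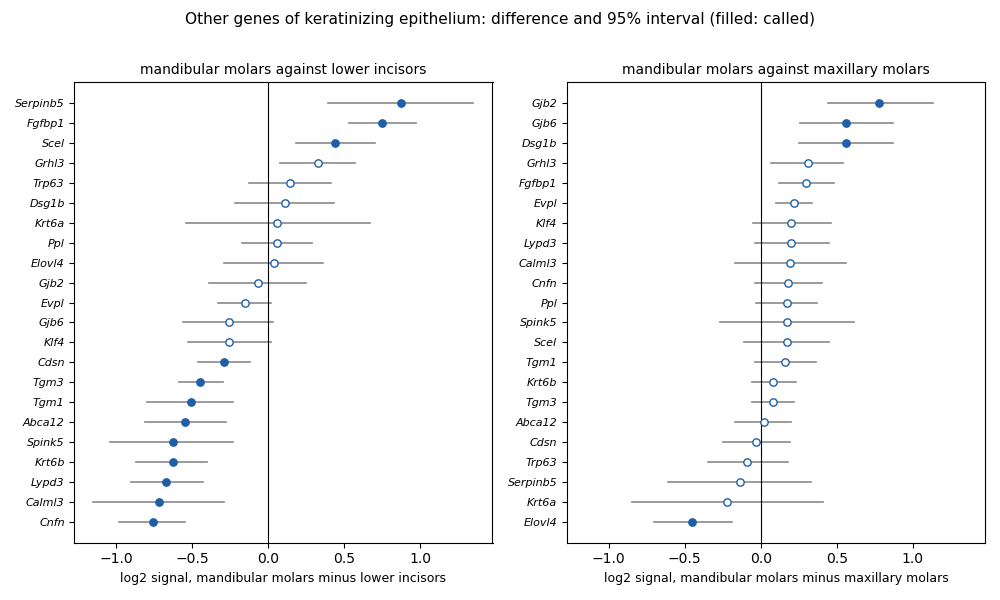
Log2 differences (points) and 95% intervals (lines) of 22 other genes of keratinizing epithelium for mandibular molars against lower incisors (left) and maxillary molars (right); filled points were called. The filled points on the left lie mostly on the incisor side, and Gjb2, Gjb6 and Dsg1b on the right lie on the mandibular side.

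Against the maxillary molar, 3 of the 54 genes were higher in the mandibular molar (5.6%, against 1.01% of all probe sets). In the maxillary molar 1 was higher (1.9%, against 1.18%). Within the sample set 1 and 1 were called, against 0.54% and 0.743% of all probe sets. The gap junction genes Gjb2 (0.78, limma, adjusted p = 0.0298) and Gjb6 (0.56, adjusted p = 0.0776) and the desmosomal cadherin gene Dsg1b (0.56, adjusted p = 0.0873) were higher in the mandibular molar. Elovl4, which makes very long fatty acids, was higher in the maxillary molar (-0.45, adjusted p = 0.0925). Calls of all 4 depended on single samples: Gjb2 was not called without maxillary molar 1, 2 or 3 (0.74 to 0.77), Gjb6 without any of these or mandibular molar 2, 3 or 4 (0.45 to 0.58), and Dsg1b and Elovl4 without any 1 of the maxillary molars or of 4 mandibular molars. Those were mandibular molars 4, 5, 6 and 8 for Dsg1b (0.51 to 0.63 over the 8 fits) and 1 to 4 for Elovl4 (-0.46 to -0.39). Evpl differed by 0.22 without overlap and stayed under the fold threshold. Fgfbp1, at 0.30, was called without mandibular molar 3 or 6.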

How the data were processed

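The deposited table held RMA log2 values for 35556 probe sets in 16 samples, which the authors made from the array scans with Affymetrix Expression Console 1.1, per the labels. Gene symbols came from the platform annotation: 21789 probe sets had 1 symbol, 1621 several and 12146 none. Groups followed the sample labels, and no column was left unmapped.

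Each comparison was a 2-group fit with limma 3.58.1 in R 4.3.3 (lmFit, eBayes) over all probe sets with a log2 signal above 5 in at least 1 compared sample, with Benjamini-Hochberg adjustment. A call needed an adjusted p under 0.1 and a fold above 1.2. Intervals are 95% intervals of the same fit. The code was tested on simulated data. The number of arrays limits the precision. RMA summarises probes over all arrays together and compresses differences of low signals, and probes of close paralogs (Sprr2, Lce, Krt6a and Krt6b) may take up each other's RNA.

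Named keratin and envelope genes were those called, the 10 of highest mean signal and a fixed list. Named other genes were up to 8 per comparison with the largest called change and a fixed list of 8. Tgm3, Cdsn and Scel, called but outside this rule, were added after their values were seen. The members, lists and tests were chosen with earlier results of these data known, and the motifs and promoters shown were chosen after values were seen. Promoters and positions are from RefSeq (GRCm38.p6).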

Additional observations from a re-analysis of the deposited data

Results flagged for a closer look

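Among 24 named keratin and envelope genes in the 3 tooth types (72 groups of samples), 9 groups held a sample far from the others of its group by Dixon's criterion, which chance meets in about 1 in 20 groups. Mandibular molar 8 was high for Sprr3 (7.02), Krt4 (8.04) and Krt13 (10.02), and incisor 2 for Krt4 (8.34). Mandibular molar 2 was low for Krt17 (11.37) and Krt18 (8.68), and incisor 1 was low for Sprr1a (7.56). For genes near the limit for low signal, incisor 2 was high for Krt2 (5.16) and incisor 3 for Krt16 (5.2).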

How the results depend on the processing

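Over 92 gene results under 33 other settings, 2272 of 2564 values kept their side of the threshold without a sign change. Of the rest, 155 were no longer called and 60 became called. Values that rounded to 0, such as that of Lor in the maxillary comparison, were counted as no sign change. A further 77 values of 21 gene results changed sign, none of them called in either fit. Shares of all probe sets called are given here only for the reported fits and those within the sample set. A setting that changes calls among all probe sets therefore cannot be told from one that changes these genes. In the incisor comparison the 6 genes higher in the incisor became 3 at a fold above 2 and 5 to 6 when 1 sample was left out. The 2 higher in the mandibular molar became 4 with 1 probe set per gene, with the mean of probe sets or with all 3 groups in 1 fit, 8 with array weights, 1 at a fold above 2, with the methods' t-test or with the sample set as a block, 0 against mandibular molars 1 to 4, 6 against 5 to 8, 0 with incisors 2 and 3 alone, and 1 to 4 when 1 sample was left out. Of the other keratinizing genes, the 9 higher in the incisor became 0 at a fold above 2, 5 against mandibular molars 1 to 4, 4 with the set block and 4 to 9 with a sample left out. The 3 higher in the molar became 6 with either probe set rule, 5 with all groups, 8 with weights or against mandibular molars 5 to 8, 0 at a fold above 2, 1 against 1 to 4, with the t-test or with incisors 2 and 3 alone, and 1 to 6 with a sample left out.

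In the maxillary comparison the 1 gene higher in the mandibular molar became 2 with either probe set rule or weights, 3 against mandibular molars 1 to 4, 0 with all groups, centred arrays, a fold above 2, mandibular molars 5 to 8, the t-test, the set block or without mandibular molar 8 and maxillary molar 4, and 0 to 2 with a sample left out. The 0 higher in the maxillary molar became 1 with either probe set rule, 2 against mandibular molars 1 to 4 and 0 to 1 with a sample left out. Of the other genes, the 3 higher in the mandibular molar became 6 with either probe set rule, 7 with weights, 8 against mandibular molars 1 to 4, 0 at a fold above 2, 1 against 5 to 8, with the t-test or with the set block, and 0 to 5 with a sample left out. The 1 higher in the maxillary molar became 2 against mandibular molars 1 to 4, 0 with all groups, centring, no filter, quantile normalization, a fold above 2, the t-test, the set block or without mandibular molar 8 and maxillary molar 4, and 0 to 1 with a sample left out. The cause of these shifts was not tested. Comparisons against the other 4 mandibular molars, and those leaving out 2 samples, were chosen after seeing the data.

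The labels do not say whether the replicate numbers pair the samples. Same-numbered deviations of mandibular molars 1 to 4 correlated at 0.09, 0.10, 0.26 and 0.67 with the incisors and 0.09, 0.39, 0.01 and 0.20 with the maxillary molars. Differently numbered ones correlated at between -0.6 and 0.41 with the incisors and between -0.48 and 0.25 with the maxillary molars. Whether the samples were paired was not settled by these values. With a replicate block on numbers 1 to 4, the counts were 0 of the keratin and envelope genes higher in the mandibular molar and 5 and 1 of the other genes in the incisor comparison. In the maxillary comparison the block gave 3 and 4 keratin and envelope genes higher in the mandibular and maxillary molar, and 9 and 4 of the other genes. Like the fit against mandibular molars 1 to 4 alone, it compared mandibular molars 1 to 4 with the maxillary molars, which belong to different sample sets. Tooth type and sample set therefore cannot be told apart in these counts.

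The values that changed sign were these. In the incisor comparison, mandibular molars 1 to 4 alone, the replicate block and the set block each gave 0.20 for Gjb2 (-0.07 in the reported fit), 0.30 for Krt15 (-0.03), -0.14 for Elovl4 (0.04), -0.33 for Krt6a (0.06) and -0.19 for Krt75 (0.29). Mandibular molars 5 to 8 gave 0.03 for Krt16, centring gave 0.01 for Krt15, and loess and quantile normalization gave -0.02 for Elovl4. Incisors 2 and 3 alone gave -0.01 for Dsg1b and Krt2, -0.16 for Krt6a and -0.09 for Ppl. With a sample left out, Elovl4 ranged from -0.08 to 0.16, Krt15 from -0.18 to 0.15, Krt2 from -0.01 to 0.05, Krt6a from -0.08 to 0.19 and Ppl from -0.01 to 0.13.

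In the maxillary comparison, mandibular molars 5 to 8 alone and the set block each gave -0.01 for Abca12, 0.12 for Krt17 (-0.18 in the reported fit), 0.17 for Krt6a, 0.08 for Krt75 (-0.41), 0.14 for Serpinb5, -0.10 for Sprr1b and 0.04 for Trp63. Mandibular molars 1 to 4 and the replicate block each gave 0.03 for Cdsn, -0.05 for Krt16 and -0.04 for Sprr3. Array weights gave 0.02 for Krt6a and Serpinb5 and -0.01 for Sprr1b. Loess gave -0.05 for Abca12, -0.01 for Krt16, -0.03 for Krt76, -0.02 for Sprr1b and -0.04 for Sprr3, and quantile normalization -0.02 for Abca12, -0.01 for Krt76 and -0.02 for Sprr3. Without mandibular molar 8 and maxillary molar 4, Cdsn was at 0.08 and Krt76 at -0.01. With a sample left out, Abca12 ranged from -0.02 to 0.06, Cdsn from -0.12 to 0.08, Krt4 from -0.36 to 0.06, Krt76 from -0.02 to 0.05 and Sprr3 from -0.11 to 0.16.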
